A study of Bos taurus with 9 samples.

Results

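The comparison concerned H3K27ac, acetylation of histone H3 at lysine 27, in rumen epithelial tissue of Holstein calves before and after weaning. Its members were all peaks of the 2 H3K27ac lists, 104695 of the 130580 peaks in the 8 lists of the series, with 74249 called before weaning and 30446 after weaning. Each time point had 1 chromatin immunoprecipitation sequencing (ChIP-seq) library, made with a rabbit polyclonal antibody against H3K27ac and run on lane 2. The labels give no age, no feed and no number of calves behind a library, and no treatment other than weaning. Hence the difference between the lists has no replicate error, no test of weaning was possible, and an effect of weaning and a difference between single libraries cannot be told apart.

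H3K27ac is written by the acetyltransferases p300 and CBP and removed by histone deacetylases, and it marks active promoters and enhancers. Active enhancers often lie close together along a chromosome, and such stretches, when dense, are known as super-enhancers. The rumen is the first chamber of the ruminant stomach. At weaning the calf passes from milk to solid feed, and fermentation in the rumen then supplies short-chain fatty acids, among them butyrate, an inhibitor of histone deacetylases. The lists hold positions on the cattle assembly UMD3.1.1, and the gene table at hand is on another assembly. For this reason peaks were not tied to genes, the tissue label was not checked against marker genes, and regions are named by position.

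A peak before weaning was called kept when it shared at least 1 bp with a peak after weaning, and lost otherwise. A peak after weaning that touched no peak before weaning was called gained. Lost peaks numbered 53552, which was 72.1% of the list before weaning (95% Wilson interval 71.8 to 72.4%), and gained peaks numbered 7040, which was 23.1% of the list after weaning (22.7 to 23.6%). All intervals cover counting error within the lists alone, and neighbouring peaks are not independent of each other. Counted in bases, peaks before and after weaning shared 8072343 bp. That was 23.1% of the 34.9 Mb covered before weaning and 75.3% of the 10.7 Mb covered after weaning. Of the 23406 kept peaks after weaning, 16547 (70.7%) lay wholly inside a peak before weaning, so most of the later peaks were parts of earlier ones. Requiring that 50% of both widths be shared raised the gained share to 64.0%, as a narrow peak inside a wide one then no longer counts as shared. Extending all peaks by 1 kb on both sides lowered it to 12.6%, with 49.3% of the peaks before weaning kept. When the list before weaning was limited to its 30446 widest peaks, 52.03% of the peaks before weaning were lost and 41.9% of those after weaning gained.

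Loss was seen on every autosome. All 29 autosomes had fewer peaks after weaning, and the ratio of peaks after to peaks before weaning ranged from 0.273 on chromosome 27 to 0.458 on chromosome 7, with a median of 0.401. The share of lost peaks was lowest on chromosome 18, at 67.8% (66.2 to 69.3%), and highest on chromosome 27, at 82.4% (79.8 to 84.7%). The median over autosomes was 72.4%. The interval lay above the share of all peaks, 72.1%, on 11 autosomes and below it on 8. As these intervals treat neighbouring peaks as independent, they are no test of a difference between autosomes. The next highest autosome after chromosome 27 was chromosome 20, which lost 77.4% (75.2 to 79.4%).

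The gained share also differed between autosomes. It was 15.9% of the peaks after weaning on chromosome 29 (13.4 to 18.8%) and 33.6% on chromosome 24 (29.9 to 37.4%), with a median of 23.4%. On chromosome 17 the gained share was 29.9% (26.9 to 33.0%), and 55 of its gained peaks lay between 50 and 52 Mb. In that stretch all 9 peaks before weaning were kept, and 55 of the 64 peaks after weaning were gained.

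**Figure D1:**
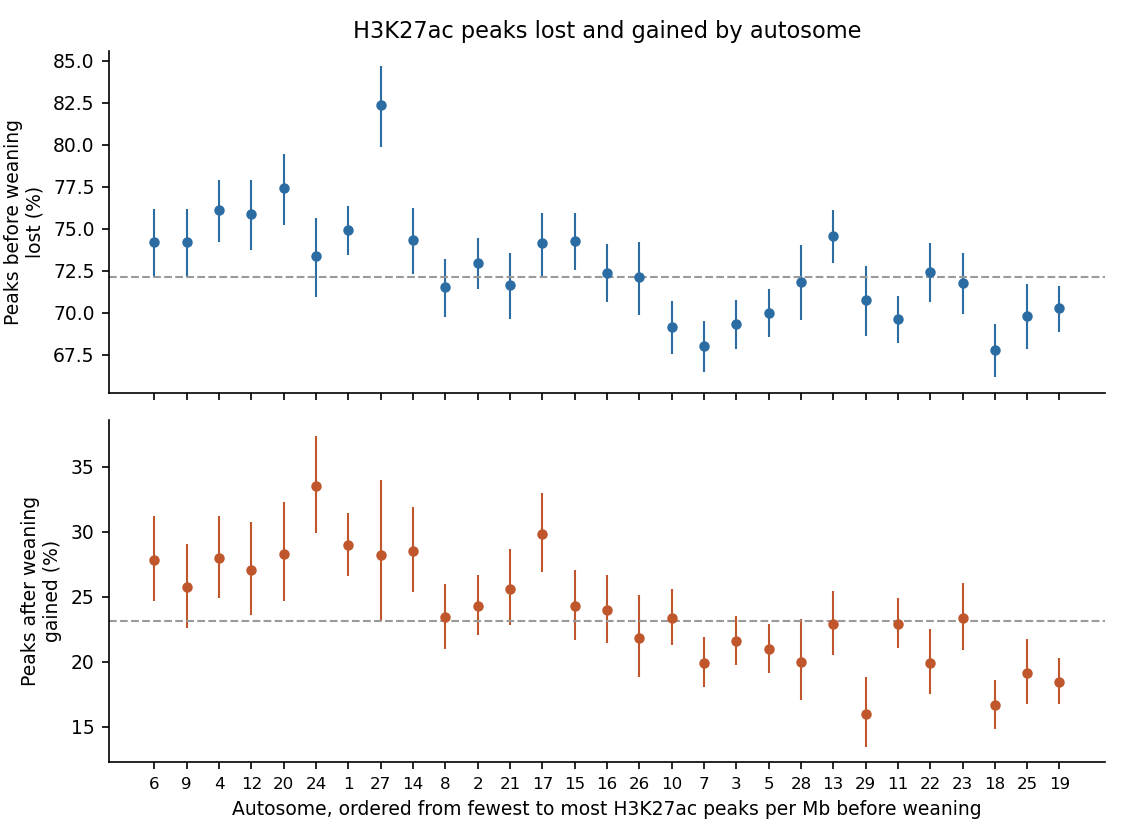
Share of H3K27ac peaks before weaning that were lost (upper panel, %) and of peaks after weaning that were gained (lower panel, %) on the 29 autosomes, placed from fewest to most peaks per Mb before weaning; points are shares, bars 95% Wilson intervals and dashed lines the shares over all peaks. Chromosome 27 had the highest lost share, 82.4%, and chromosome 24 the highest gained share, 33.6%, and both panels fall from left to right; the axes do not start at 0.

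Autosomes with a higher density of H3K27ac peaks before weaning tended to have lower lost and gained shares. Before weaning the density ran from 15.3 peaks per Mb on chromosome 6 to 66.9 on chromosome 19, with a median of 31.7. Across the 29 autosomes, density went with a lower lost share (Pearson's r = -0.60, Spearman's rho = -0.70, r = -0.64 without the 2 autosomes farthest from the median density). It also went with a lower gained share (r = -0.74, rho = -0.85, r = -0.75 without those 2). Lost and gained shares thus varied in the same direction (r = 0.69, rho = 0.76, r = 0.72 without the 2 autosomes farthest from the median lost share). Autosomes with wider peaks lost fewer, the median width before weaning and the lost share having r = -0.77 and rho = -0.82 (r = -0.76 without 2). The extent of the chromosome showed little relation to the lost share (r = -0.06, rho = 0.04). These correlations are descriptions across chromosomes of the same 2 libraries, which share depth and threshold, and chromosomes are not replicates. Density and width were also taken from the list before weaning, which defines the classes. A later peak meets an earlier one more readily where earlier peaks are denser, and a wider peak offers more bases to be touched. The relations of density to the gained share and of width to the lost share thus follow in part from the definitions.

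Chromosome 27 had the fewest peaks of any autosome at both time points, 959 before and 262 after weaning. Its loss was spread along the chromosome. In windows of 5 Mb the lost share lay between 74.1%, in the window from 40 to 45 Mb, and 92.1%, in the window from 20 to 25 Mb, where 127 peaks before weaning faced 20 after weaning. Its peaks before weaning were also among the narrowest, with a median of 322 bp against a median over autosomes of 341 bp, and 5.21% of them reached 1000 bp. Of those 50 wide peaks, the fewest on any autosome, 38.0% were lost, the highest such share among autosomes. On chromosome X, outside the comparison of autosomes, 1098 peaks before weaning and 229 after weaning were called, and 84.0% of the former were lost (81.7 to 86.02%).

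To describe clustering, peaks separated by at most 12.5 kb were joined, a distance commonly used to stitch enhancers. Before weaning the peaks fell into 20556 clusters, of which 7360 were single peaks. The 13196 clusters with 2 or more peaks held 66889 peaks (90.1%). After weaning there were 12950 clusters, 6510 of them single, and the 6440 larger ones held 23936 peaks (78.6%). Number and size of the clusters were both lower after weaning. The mean was 3.61 peaks per cluster before and 2.35 after weaning, and the median span of clusters with 2 or more peaks was 5.21 kb and 3.63 kb. Summed over all clusters the span was 143.03 Mb before and 51.1 Mb after weaning.

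The difference was also seen in large clusters. Clusters of 10 or more peaks numbered 1456 before and 313 after weaning, and they held 33.2% and 14.8% of the peaks. Clusters of 20 or more peaks numbered 354 and 40. The largest cluster had 88 peaks before and 46 after weaning. Since a list with fewer peaks has fewer neighbours to join, equal numbers were also compared, using the 30446 widest peaks before weaning. The mean was then 2.19 peaks per cluster before weaning, against 2.35 after weaning with the same number of peaks. At equal length the mean cluster was thus not larger before weaning.

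Large clusters were thinned and seldom lost whole. No peak was kept in 77.2% of the single peaks (76.2 to 78.1%), in 51.8% of clusters of 2, in 27.8% of clusters of 5 to 9 and in 5.08% of clusters of 20 or more (18 of 354, 3.24 to 7.89%). The share of individual peaks kept was lowest for single peaks, at 22.8%, and had no steady trend from clusters of 2 upwards. It was 31.07% for clusters of 2, 26.7% for clusters of 5 to 9 and 31.4% for clusters of 20 or more. A cluster with more peaks has more chances to keep one at the same share, and the 2 series of values are therefore given together. In the 354 clusters of 20 or more peaks the share kept had a median of 30.4%, quartiles of 18.9 and 42.9% and a maximum of 78.4%. At least 50% of the peaks were kept in 54 of these clusters and under 10% in 47.

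**Figure D2:**
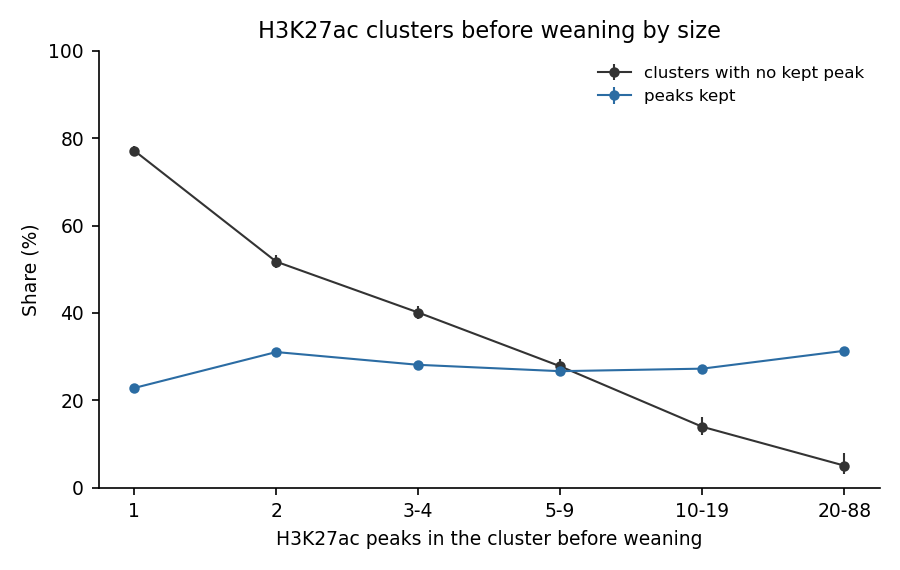
Share of H3K27ac clusters before weaning with no kept peak (dark) and share of their peaks that were kept (blue), in %, by the number of peaks in the cluster; bars are 95% Wilson intervals. The first falls from 77.2% for single peaks to 5.08% for clusters of 20 to 88 peaks, while the second stays between 22.8 and 31.4%.

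Of the clusters before weaning with 2 or more peaks, 5047 (38.2%) held no kept peak, and 159 of these had a peak after weaning in a gap between their peaks. The other 4888 had no H3K27ac peak anywhere in their span after weaning. With equal numbers of the widest peaks, 23.03% of such clusters held no kept peak, and with peaks above the pooled median width of 324 bp 48.4% did, so this share moved in both directions with the peaks compared. A single cluster after weaning was met by 7616 clusters before weaning, and 699 clusters met 2 or more, up to 6. In the reverse direction, 429 of the 6440 clusters after weaning with 2 or more peaks (6.66%) held no peak shared with the list before weaning. Of the lost peaks, 30068 (56.1%) lay in a cluster that kept another peak, 17805 (33.2%) in a larger cluster that kept none, and 5679 (10.6%) alone. Of the gained peaks, 1967 (27.9%) lay alone, 4007 (56.9%) in a cluster with a kept peak and 1066 (15.1%) in a cluster of 2 or more with none.

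Lost and gained peaks also differed in their distance to the other list. The median distance from a lost peak to the nearest peak after weaning was 9.96 kb, and from a gained peak to the nearest peak before weaning 2.59 kb. A peak of the other time point lay within 1 kb for 21.5% of lost peaks and 34.0% of gained peaks, and within 12.5 kb for 53.6% and 74.3%. The list before weaning is the longer one, which alone shortens the distance from a gained peak.

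Individual clusters ranged from dense stretches that were largely kept to stretches that were lost whole. The cluster with the most peaks before weaning, at chr20:4414403-4578229, had 88 peaks covering 52.1 kb of its 163.8 kb, of which 21 were kept (23.9%). It held 26 peaks after weaning, in 4 clusters, covering 8.87 kb. The cluster at chr11:25641456-25839751 also had 88 peaks, with 24 kept and 34 peaks after weaning. At chr13:79029834-79186253, 18 of 84 peaks were kept. At chr29:29990333-30159540 the number was 11 of 63. The cluster at chr10:80646701-80833554 differed from these in that 42 of its 77 peaks were kept (54.5%), and all 45 peaks in its span after weaning belonged to 1 cluster.

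That same stretch of chromosome 10 held the cluster with the most peaks after weaning, at chr10:80646476-80822722, with 46 peaks, 41 of them touching a peak before weaning. It covered 19.6 kb after weaning, where the peaks before weaning covered 35.3 kb. The next largest cluster after weaning, at chr7:63062221-63157510, had 43 peaks where 25 were called before weaning, and 24 of the 43 touched an earlier peak. Its peaks covered 16.5 kb against 12.5 kb before weaning, making it the only one of these 5 clusters with more covered length after weaning. The clusters at chr5:26094891-26196814 (41 peaks, 35 shared), chr4:46400521-46487163 (39 peaks, 28 shared) and chr23:28018057-28114502 (37 peaks, 29 shared) overlapped 50, 38 and 44 peaks before weaning. In each of these less length was covered after weaning, also on chromosome 4, where the peaks numbered 1 more.

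Among clusters with no peak after weaning, the one at chr13:59121275-59189496 was the largest, with 32 peaks over 68.2 kb. The next were at chr5:56863216-56902572 with 28 peaks, chr15:64471823-64520745 with 25, and chr15:27888272-27934744 and chr16:42161156-42195108 with 23 each. The chromosome 5 cluster was the densest of them, with 36.1% of its 39.4 kb covered by peaks and a widest peak of 1808 bp. It also held 3 H3K9ac peaks and 3 RNA polymerase II (RNA pol II) peaks before weaning.

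Clusters gained whole were smaller, in a list that has fewer peaks to join and so smaller clusters. The largest, at chr3:109884103-109897915, had 9 peaks over 13.8 kb. The others, at chr11:61789311-61799442, chr19:50677358-50682098, chr9:91183671-91189299 and chr4:106580069-106592492, had 6 peaks each. The clusters on chromosomes 11 and 9 held peaks of RNA pol II, H3K9ac and H3K9me3 at both time points, whereas those on chromosomes 3, 19 and 4 held no peak of these other targets.

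**Figure D3:**
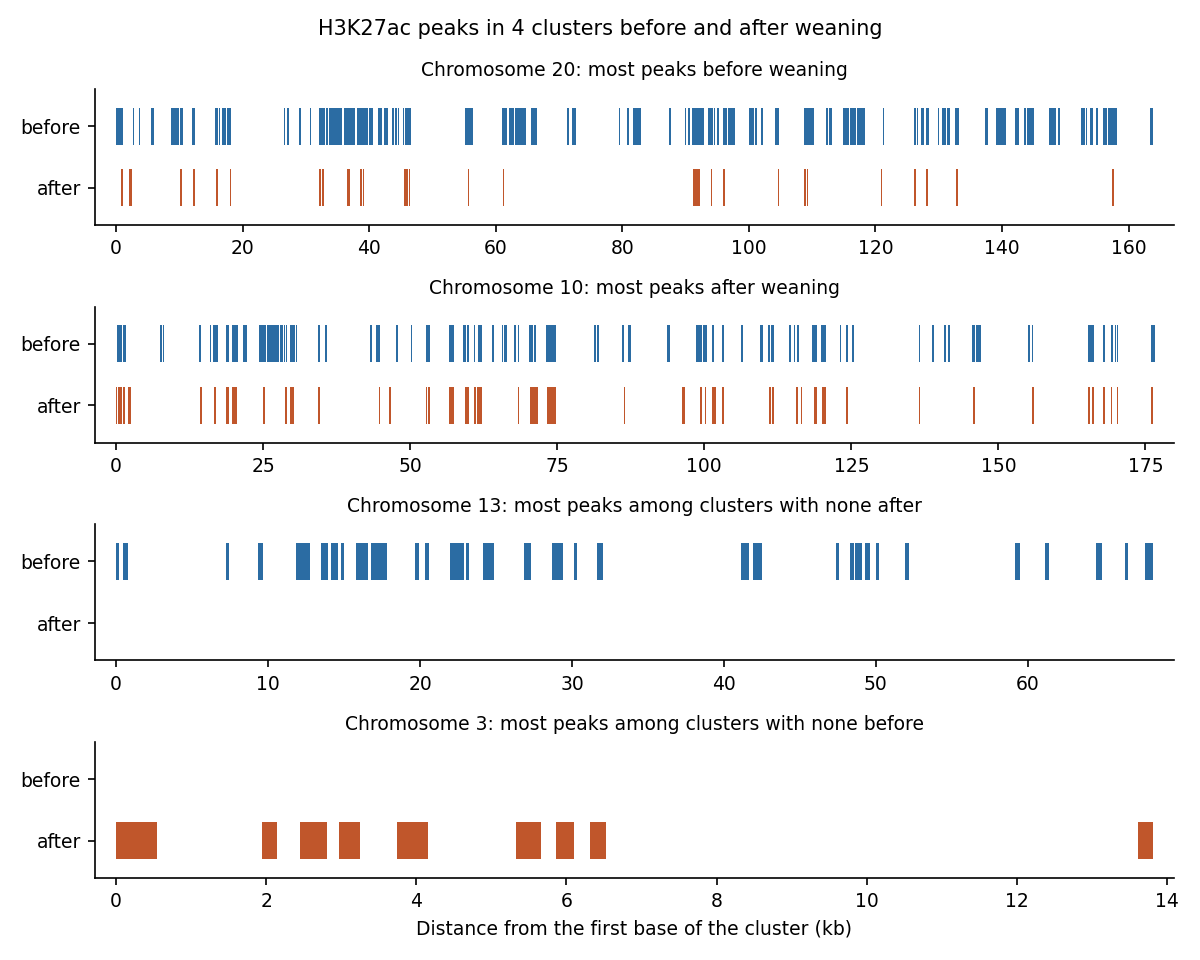
H3K27ac peaks before (blue) and after (red) weaning in 4 clusters, drawn to scale as distance in kb from the first base of the cluster: on chromosome 20 (88 peaks before, 26 after), on chromosome 10 (76 before within the span of the cluster after weaning, 46 after), on chromosome 13 (32 before, none after) and on chromosome 3 (none before, 9 after). The peaks left on chromosome 20 leave long stretches empty, and those on chromosome 10 mostly sit on peaks before weaning.

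The width of a peak before weaning went with whether it was kept. In the absence of a height or p-value in the lists, width is the one measure of size they hold. The kept share was 9.84% (9.42 to 10.3%) at 200 to 249 bp, 31.5% (30.7 to 32.3%) at 400 to 599 bp, 75.6% (74.2 to 76.9%) at 1000 to 1499 bp and 93.6% (91.2 to 95.3%) from 2000 bp. A wide peak offers more bases to be touched, so the share of bases was computed as well. It rose from 7.996% of the bases at 200 to 249 bp to 36.0% at 1000 to 1499 bp and 43.6% from 2000 bp. The same direction was seen after weaning, where 64.8% of the peaks of 200 to 249 bp touched a peak before weaning (63.9 to 65.7%) and 381 of the 382 peaks of at least 1000 bp did so. For H3K9ac, the other acetylation in the series, 6.60% of the 14384 peaks before weaning were kept, with 3.43% at 200 to 249 bp and 20.7% at 600 to 999 bp. Its lists before and after weaning held 16511 peaks together. So short a list after weaning limits the share that can be kept, and the level is not comparable with that of H3K27ac.

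Gained peaks had a median width of 244 bp, against 311 bp for the kept peaks of the same list. Narrower than 300 bp were 73.5% of the gained peaks (72.5 to 74.5%) and 46.7% of the kept peaks after weaning (46.04 to 47.3%). In the list before weaning, lost peaks were narrower than 300 bp in 50.05% of cases (49.6 to 50.5%), and kept peaks in 16.5% (15.97 to 16.98%).

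Peaks of at least 1000 bp, called wide, numbered 5526 before weaning (7.44% of the list) and 382 after weaning (1.25%). The fate of the wide peaks before weaning was divided between loss, narrowing and splitting. No peak after weaning touched 1130 of them (20.4%, 19.4 to 21.5%). A single peak after weaning touched 2479 (44.9%, 43.6 to 46.2%), and this peak was narrower in 2453 cases and lay wholly inside the wide peak in 2309. The remaining 1917 were touched by 2 or more peaks after weaning (34.7%, 33.4 to 36.0%), 401 of them by 3 or more. These 1917 are called split. When peaks within 1 kb were first merged in both lists, the division changed. Merging gave 15638 wide regions before weaning, of which 5964 (38.1%) were lost, 8209 (52.5%) met 1 narrower region and 997 (6.38%) were split.

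Splitting was more frequent the wider the peak. It was found in 6.001% of peaks of 600 to 999 bp (5.57 to 6.46%), 24.4% of those of 1000 to 1499 bp (23.1 to 25.8%), 49.6% of those of 1500 to 1999 bp (46.8 to 52.6%) and 75.9% of those from 2000 bp (72.1 to 79.3%). Of the 81 peaks of at least 3000 bp, 76 were split, 4 were touched once and 1 was lost. In the reverse direction 66 of the 382 wide peaks after weaning were touched by 2 or more peaks before weaning (17.3%, 13.8 to 21.4%). Joining of separate earlier peaks under a later one was thus also present. Over all widths it concerned 516 of the 23406 kept peaks after weaning (2.20%), while 2734 of the 20697 kept peaks before weaning were split (13.2%, 12.8 to 13.7%). The list before weaning holds the wider peaks, and at like width the order was not uniform. Joining was found in 2.83% of the peaks after weaning of 400 to 599 bp (2.41 to 3.31%) against 0.798% split (0.664 to 0.959%), and in 7.21% of those of 600 to 999 bp (6.23 to 8.33%) against 6.001%. At 1000 to 1499 bp joining was found in 17.5% (13.8 to 21.9%) against 24.4% split. At 1500 to 1999 bp it was found in 14.6% of 41 peaks against 49.6% split, and from 2000 bp in 22.2% of 9 against 75.9%. The list before weaning is also the longer one, which alone makes it more likely that a later peak touches 2 or more earlier ones.

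**Figure D4:**
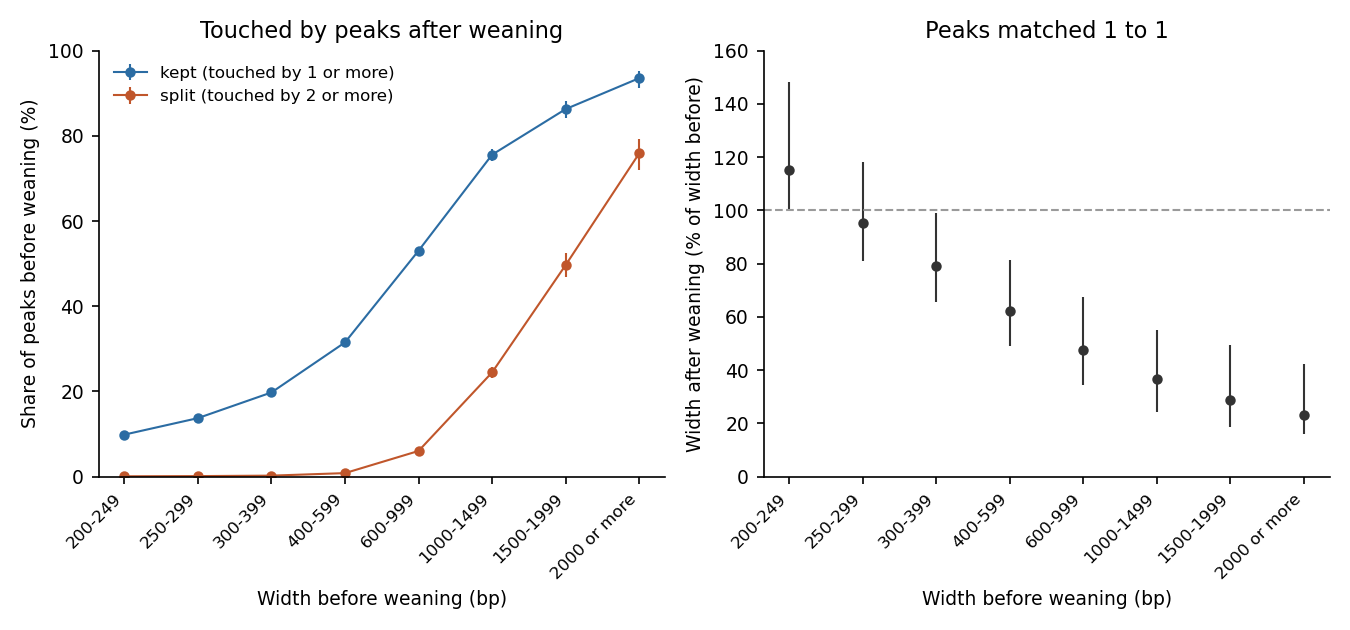
Left, share of H3K27ac peaks before weaning (%) that were kept (blue) or split (red) by their width in bp, with 95% Wilson intervals; right, width after weaning as a percent of the width before for the 17067 peaks matched 1 to 1, as median and quartiles, with a dashed line at 100%. The kept share rises from 9.84% to 93.6% and the split share to 75.9%, while the median relative width falls from 115% for the narrowest class to 23.2% for the widest.

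Narrowing was measured in peaks matched 1 to 1, where a peak before weaning and a peak after weaning touched each other and no other peak. There were 17067 such pairs. Their width had a median of 542 bp before weaning against 308 bp after it, and the width after was a median of 64.8% of that before, with quartiles of 43.6 and 89.9%. The later peak was the narrower one in 82.6% of pairs (82.06 to 83.2%). Narrowing depended on the starting width, with a median relative width of 115% for peaks of 200 to 249 bp, which cannot become narrower than the 200 bp minimum of the lists, 62.2% at 400 to 599 bp and 36.6% at 1000 to 1499 bp. Choosing pairs by a large width before weaning favours narrowing, so the 210 pairs with a wide peak after weaning were examined as well. In 170 of them (81.0%, 75.1 to 85.7%) the later peak was still the narrower one, with medians of 1442.5 bp before and 1172 bp after weaning.

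Wide peaks before weaning that were met by 1 peak went from a median of 1219 bp to 443 bp. Split peaks were wider at the start, with a median of 1516 bp. Their pieces had a median width of 333 bp, the widest piece of each a median of 472 bp, and the gaps between pieces a median of 194 bp (quartiles 108 and 321 bp). The pieces together covered a median of 54.4% of a split peak, while the single later peak covered a median of 35.3% of the wide peak it touched.

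The bases that remained were distributed differently in these 2 classes. In wide peaks met by 1 peak, coverage after weaning was highest at the centre, where 57.8% of the peaks were covered, and 10.6 and 11.6% were covered in the outermost bins, each bin being 5% of the width. In split peaks coverage was nearly level over the interior, at 59.3 to 62.6% between 20 and 80% of the width, and it fell to 24.7 and 26.3% in the outermost bins. A narrower peak that lies wholly inside a wide one covers its centre more often than its edges wherever it is placed, so the low edges follow in part from how the classes were formed and are given as a description.

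**Figure D5:**
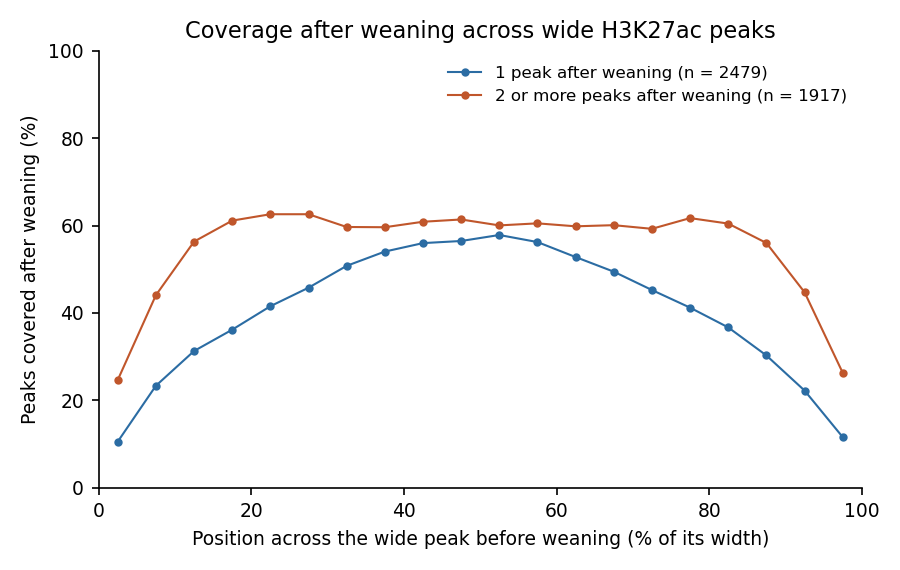
Share of wide H3K27ac peaks before weaning (at least 1000 bp) that were covered by a peak after weaning (%), in 20 bins across the width of the peak, for those met by 1 peak (blue, n = 2479) and by 2 or more (red, n = 1917). The blue line peaks at 57.8% in the centre and the red line is nearly level between 59.3 and 62.6% over the interior, with both at their lowest in the outermost bins.

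The widest peaks before weaning were all split. The peak at chr18:48668515-48674649 (6135 bp) was touched by 6 peaks after weaning, which covered 56.3% of it and were 225 to 1128 bp wide. The peak at chr17:55749420-55755197 (5778 bp) was touched by 6, the peak at chr25:34854361-34859539 (5179 bp) by 5 and the peak at chr5:28064219-28069144 (4926 bp) by 4. All of these touched an H3K9ac peak before weaning. A further peak at chr5:57125930-57130661 (4732 bp) was met by 5 peaks of 284 to 813 bp.

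The most pieces were found at chr24:37937384-37943141, where 8 peaks after weaning lay within 5758 bp. In order along the chromosome they were 416, 214, 232, 215, 932, 316, 322 and 246 bp wide. The widest, at chr24:37939953-37940884, lay near the middle of the earlier peak, and the 8 together covered 50.2% of it.

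The widest lost peaks were narrower than the widest split ones. They were found at chr17:62349213-62352445 (3233 bp), chr23:48079871-48082754 (2884 bp), chr13:60542870-60545630 (2761 bp), chr17:18908523-18911140 (2618 bp) and chr16:73477707-73480245 (2539 bp). The nearest H3K27ac peak after weaning was 9.26, 8.99, 88.0, 42.9 and 13.7 kb away. Those on chromosome 23 and at chr17:18908523-18911140 touched an H3K9ac peak before weaning. Both of those on chromosome 17 touched an RNA pol II peak before weaning.

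The widest gained peak, at chr16:43697651-43698711, measured 1061 bp and was the only wide peak after weaning that touched no earlier peak. It lay 2.25 kb from the nearest peak before weaning, in a cluster of 20 peaks. The next widest were at chr18:35139788-35140702 (915 bp), chr17:51118296-51119198 (903 bp), chr9:7773632-7774532 (901 bp) and chr23:27688976-27689847 (872 bp). The peaks on chromosomes 17 and 9 also touched peaks of H3K9ac, RNA pol II and H3K9me3 at both time points, and the other 3 touched none.

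The other targets of the series were then set against the kept, lost and gained classes, since they were not used to define them. H3K9ac, a mark of active promoters, was found before weaning at 36.1% of kept peaks (35.5 to 36.8%) and 7.28% of lost peaks (7.07 to 7.51%). Kept peaks are wider, and the comparison was repeated within width classes. H3K9ac was more frequent at kept than at lost peaks in each class, with 3.53% and 2.29% at 200 to 249 bp, 26.8% and 10.2% at 400 to 599 bp, 64.7% and 34.2% at 1000 to 1499 bp and 88.0% and 77.1% from 2000 bp, where 35 peaks were lost. Seen from the other side, 65.7% of the 11380 H3K27ac peaks with H3K9ac before weaning were kept (64.9 to 66.6%), against 21.02% of the 62869 without it (20.7 to 21.3%), and 31.0% and 3.18% of these peaks were wide.

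RNA pol II before weaning followed the same order, at 6.06% of kept peaks (5.75 to 6.397%) and 0.530% of lost peaks (0.472 to 0.595%). The order held in each width class, with a smaller gap. The shares were 0.749% and 0.152% at 200 to 249 bp and 3.05% and 0.697% at 400 to 599 bp. They were 11.9% and 3.62% at 1000 to 1499 bp and 17.4% and 10.3% at 1500 to 1999 bp. Among wide peaks, H3K9ac before weaning was found at 37.9% of those lost (35.1 to 40.7%), 66.4% of those met by 1 peak (64.5 to 68.2%) and 75.9% of those split (73.9 to 77.8%). RNA pol II before weaning was found at 4.60%, 13.1% and 18.3% of them. Split peaks are the wider ones, and both targets were also counted at higher widths. From 1500 bp H3K9ac was found at 56.02%, 77.4% and 84.2%, and from 2000 bp at 77.1% (61.0 to 87.9%), 83.3% (74.6 to 89.5%) and 89.08% (85.7 to 91.7%), where the intervals of neighbouring classes overlap. RNA pol II was found at 9.42%, 18.1% and 23.95% from 1500 bp and at 5.71% (1.58 to 18.6%), 26.04% (18.3 to 35.6%) and 31.8% (27.5 to 36.4%) from 2000 bp. The order was not examined at equal width.

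An H3K9ac peak after weaning was found at 3.15% of gained peaks (2.77 to 3.59%) and 5.34% of kept peaks after weaning (5.06 to 5.64%). The order was not uniform at like width, where the shares of gained and kept peaks were 1.62% and 1.56% at 200 to 249 bp, 3.35% and 2.66% at 250 to 299 bp, 8.54% and 8.19% at 400 to 599 bp and 14.0% and 14.6% at 600 to 999 bp. H3K9me3, a mark of repressed chromatin, had a peak after weaning at 3.01% of gained peaks (2.64 to 3.44%) and 0.162% of kept peaks after weaning (0.118 to 0.223%), with 1.96% and 0.0288% at 200 to 249 bp and 7.02% and 0.251% at 400 to 599 bp. Together 217 gained peaks touched H3K9me3 at either time point, 205 of them before weaning. Of the 217, 193 touched RNA pol II after weaning (88.9%), 168 touched RNA pol II before weaning (77.4%), 145 touched H3K9ac after weaning (66.8%), and 55 lay on chromosome 17 between 50 and 52 Mb. Among the other 6823 gained peaks 1 touched RNA pol II after weaning and 77 touched H3K9ac after weaning (1.13%). A small set of gained H3K27ac peaks thus lay where the other targets also had peaks, RNA pol II and H3K9me3 already before weaning, and the same input library served as background for the peak calls of all targets. Its part in these peaks was not tested.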

How the data were processed

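ChIP-seq of 4 targets was run on rumen epithelial tissue before and after weaning, with 1 library per target and time point and 1 input library. Per the labels and methods, reads were aligned to UMD3.1.1, only uniquely aligned reads were kept, and peaks were called by MACS2 against the input. The submitters' processing notes name Trim Galore 0.4.1, BWA, MACS2 and UMD3.1. The deposited values are start and end positions of peaks, which the authors left without height, fold enrichment or p-value. Sequencing depth was not used here. The smallest difference between end and start was 199 bp, and both ends were counted as part of a peak (1-based positions), so that the lowest width is 200 bp.

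Peaks were compared by shared bases (at least 1 bp), joined into clusters at a gap of at most 12.5 kb, and called wide from 1000 bp, using Python 3.11.15, numpy 2.4.6, pandas 2.3.3 and statsmodels 0.14.6 for 95% Wilson intervals. Figures were drawn with matplotlib 3.10.9. The functions for overlap, joining and splitting were tested on simulated data. Peaks per Mb used the highest peak end on a chromosome as its extent. No test was made, since each group holds 1 library.

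The members, classes and thresholds were chosen with earlier results of these data known. Regions were named by rule as the top 5 by number of peaks (before, after, lost whole, gained whole), by width (before, lost, gained) and by number of pieces, and the stretch of chromosome 17 was named after its values were seen. Gene lists and markers set for gene bodies were not used, because no annotation of the build of the files was at hand. Alternatives were a reciprocal overlap of 50%, peaks extended by 1 kb, peaks within 1 kb merged, peaks wider than the median, equal numbers of the widest peaks, joining at 5 or 25 kb, and wide peaks from 1500 or 2000 bp.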

Additional observations from a re-analysis of the deposited data

How the results depend on the processing

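The lists rest on 1 library per time point, so leaving out a replicate was not done, and the number of peaks depends on depth, enrichment and threshold together, which the lists do not separate. No paired analysis was possible because each group holds 1 library. Of 52 recomputed counts, 28 stayed within a factor of 1.5 of the reported count and 24 moved beyond it. Some of the 28 had little room to move. Chromosomes 1 to 29 held 73151 of the 74249 peaks before weaning, and 74240 remained without 50 to 52 Mb of chromosome 17. Taking the widest peaks before weaning left the list after weaning, and its 12950 clusters, unchanged. Counts and not shares were compared. With equal numbers of the widest peaks, 14606 peaks before weaning were kept, within the factor. The kept share went from 27.88 to 47.97%. The settings added after seeing the data comprised equal numbers in row order, leaving out 50 to 52 Mb of chromosome 17, and the reverse direction.

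With a reciprocal overlap of 50%, 10963 peaks before weaning were kept and 19483 peaks after weaning were gained. With peaks extended by 1 kb the counts were 36623 and 3847. Using peaks wider than the median, 30580 were lost, 9306 kept and 2391 gained, and there were 7447 clusters after weaning. With equal numbers of the widest peaks, 15840 were lost, 12755 were gained and 1595 clusters of 2 or more peaks kept none, which was 23.03% of such clusters against 38.2% over all peaks. With equal numbers in row order these counts were 16232, 13422 and 1677, with 13461 clusters before weaning. After merging within 1 kb, 27005 regions were lost, 997 wide regions were split and 8209 were narrowed, of 15638 wide regions. Joining at 25 kb gave 3351 clusters of 2 or more peaks with none kept. Wide peaks from 1500 bp gave 977 split and 507 narrowed, and from 2000 bp 412 and 95. In the reverse direction 66 wide peaks after weaning were touched by 2 or more peaks. Several of these settings compare fewer peaks by construction, and the cause of the other shifts was not tested.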

Other observations

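The rows of both lists were not in order of position, and the order they follow is not stated in the sources used here. In the first 10% of the rows before weaning 78.2% of the peaks were kept (77.3 to 79.2%), with a median width of 818 bp. In the later stretches of 10% the kept share lay between 12.1 and 43.03%, and in the last of them it was 17.6%, with a median width of 299.5 bp. After weaning, 93.7% of the peaks in the first 10% touched a peak before weaning (92.7 to 94.5%). The lowest share after weaning was 67.3%, and that of the last 10% was 80.6%. What the order stands for was not tested.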
